A study of Macaca mulatta with 52 samples.

Results

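GATA2, GATA3, GATA4 and GATA6 were taken from the count table of single rhesus monkey embryos as the rows with those symbols (identifiers ENSMMUG00000021371, ENSMMUG00000006944, ENSMMUG00000019208 and ENSMMUG00000010944). They are 4 of 26309 identifiers, of which 15078 carried a gene name. Embryos came from oocytes matured in the animal after gonadotrophin stimulation, fertilised in vitro and grown in defined medium. Some cultures held relaxin, a peptide hormone, but the labels do not say which embryos received it. Each library was made from 1 embryo with either SPIA, which amplifies cDNA by a linear method, or SoLo, a low-input kit that depletes ribosomal RNA late in the protocol.

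The SPIA libraries analysed were 9 of 8-cell embryos, 11 of morulas, 14 of expanded blastocysts and 2 of blastocysts labelled delayed. The SoLo libraries were 4 of 8-cell embryos, 3 of morulas and 6 of expanded blastocysts. Each of the 13 SoLo libraries came from an embryo that had a SPIA library too, and 11 of them could be paired by embryo number, so the kits are not separate sets of embryos. No genotype or strain separates the groups, and the labels do not name the parents of an embryo. Each embryo is named below by its number in the title, whose first 6 digits are called its title code. P-values measure the spread between these embryos, some of which may share parents or a culture.

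GATA factors are zinc-finger proteins that bind DNA and open or activate genes in many lineages. In mammalian blastocysts GATA2 and GATA3 are known as factors of the trophectoderm, the outer layer that founds the placenta. GATA4 and GATA6 are known as factors of the primitive endoderm, the layer that lines the yolk sac, and GATA6 is present in many cells before that layer is set apart.

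Total counts, in M (1e6 counts), ran from 0.601 to 21.04 M in the SPIA libraries and from 5.70 to 10.57 M in the SoLo libraries. Summed levels of the 8-cell markers ZSCAN4, LEUTX and TPRX1 ran from 197 to 575 CPM in SPIA 8-cell embryos and from 0.346 to 45.5 CPM in SPIA expanded blastocysts. The blastocyst markers KRT18, KRT19 and ENPEP together ran from 34.3 to 829.3 CPM in those blastocysts and from 0 to 34.4 CPM in the 8-cell embryos. In SPIA morulas the same 2 sums ran from 1.33 to 582 CPM and from 3.95 to 133 CPM. No row was named for CDX2, TEAD4, KLF5, SOX17 or KRT8.

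Levels below are in CPM, the count relative to the total count of the library, scaled within each kit, and describe 1 gene across embryos. The genes' levels are not compared with each other, because transcript lengths were not given. Since each library held a whole embryo, a change in the number of cells of a type and a change in RNA per cell cannot be told apart. An embryo was counted as expressing a gene at 5 CPM or more, a threshold used only for description.

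**Figure D1:**
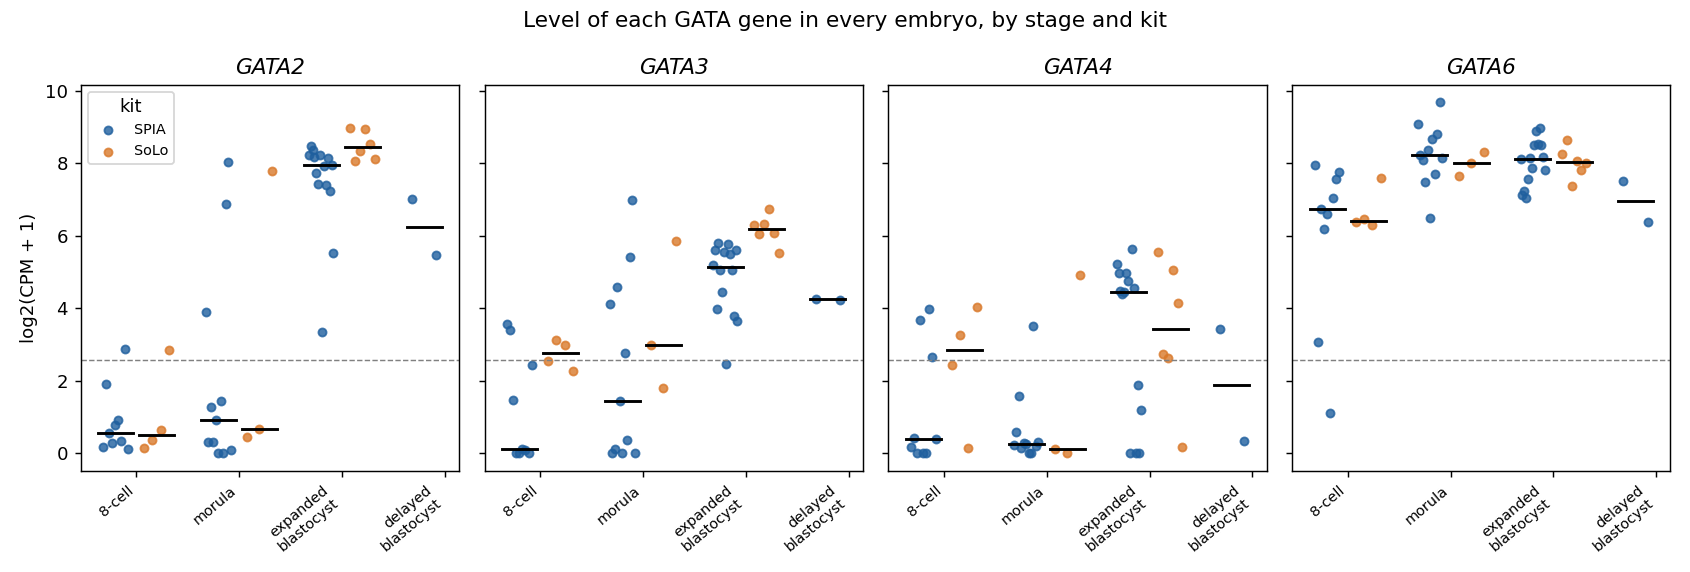
Level of each gene as log2(CPM + 1) (vertical axis) in every library, by stage (horizontal axis) and kit (colour). Points are embryos, black bars are group medians, and the dashed line marks 5 CPM. GATA2 stood below the line in 8 of 9 SPIA 8-cell embryos and above it in all 14 expanded blastocysts, while GATA6 stood above it in all but 1 library.

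GATA2, a trophoblast factor, was low in 8-cell embryos, with 1 to 73 counts in SPIA, and present in every blastocyst. In SPIA 8-cell embryos it ran from 0.0828 CPM through a median of 0.490 to 6.38 CPM (mean 1.33 ± 2.06, SD, n = 9). In SPIA morulas it ran from 0 through 0.908 to 263 CPM (mean 36.1 ± 82.6, SD, n = 11). In SPIA expanded blastocysts it ran from 9.14 through 244 to 352 CPM (mean 221 ± 103, SD, n = 14). The 8-cell and expanded blastocyst ranges did not overlap, and morulas spanned both. The lowest blastocyst, 111715_05, was also the shallowest library, with 0.601 M counts and 4 counts of GATA2.

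SoLo libraries gave the same order. The 8-cell embryos held 0.109, 0.284, 0.566 and 6.28 CPM of GATA2. The morulas held 0.367, 0.586 and 222 CPM. Expanded blastocysts ran from 264 through 347 to 499 CPM (mean 370 ± 103, SD, n = 6). Morulas overlapped 8-cell embryos and did not reach the blastocysts.

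Morulas were not a uniform group for GATA2. Of 11 SPIA morulas, 3 reached 5 CPM: 020816_02 with 13.9 CPM, 022916_01 with 116 CPM and 022916_02 with 263 CPM. The other 8 stood at or under 1.72 CPM. The remaining morula with the code 022916, 022916_03, held 0.0610 CPM. Stage markers set the high pair apart from each other. In 022916_01 the blastocyst markers summed to 133 CPM, the highest of the SPIA morulas, and the 8-cell markers to 11.7 CPM. In 022916_02 the blastocyst markers summed to 3.95 CPM, the lowest, and the 8-cell markers to 582 CPM, the highest. Their part in the GATA2 levels was not tested.

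GATA3, the other trophoblast factor, varied between 8-cell embryos. In SPIA 8-cell embryos it ran from 0 through 0.0912 to 10.9 CPM (mean 2.99 ± 4.38, SD, n = 9), with 3 embryos at 0 counts. In SPIA morulas it ran from 0 through 1.70 to 127 CPM (mean 19.6 ± 37.9, SD, n = 11). In SPIA expanded blastocysts it ran from 4.57 through 34.2 to 54.9 CPM (mean 32.8 ± 17.1, SD, n = 14). Neighbouring stages overlapped. All 4 SoLo 8-cell embryos held GATA3, at 4.90, 7.77, 7.02 and 3.88 CPM, from 29 to 82 counts each. The SoLo morulas held 6.97, 2.49 and 57.2 CPM. SoLo expanded blastocysts ran from 44.8 through 71.7 to 105 CPM (mean 72.8 ± 20.0, SD, n = 6), above every SoLo 8-cell embryo.

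GATA4, an endoderm factor, split the expanded blastocysts in SPIA. In SPIA expanded blastocysts it ran from 0 through 21.1 to 48.4 CPM (mean 18.6 ± 15.6, SD, n = 14). There were 9 embryos between 20.1 and 48.4 CPM and 5 between 0 and 2.68 CPM, with none in between. The 5 low embryos were 111715_05, 112415_03 and 112515_03 at 0, 112515_04 at 1.30 CPM and 112415_04 at 2.68 CPM. Apart from 111715_05, the shallowest library, these carried the codes 112415 and 112515, in which 2 of 6 expanded blastocysts stood in the high set.

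In SPIA morulas GATA4 ran from 0 through 0.195 to 10.4 CPM (mean 1.27 ± 3.07, SD, n = 11), and only 022916_01 reached 5 CPM. In SPIA 8-cell embryos it ran from 0 through 0.331 to 14.8 CPM (mean 3.63 ± 5.78, SD, n = 9). The highest 8-cell embryos were 020816_10, 020816_07 at 11.8 CPM and 112815_01 at 5.27 CPM. The 8-cell level was therefore not a uniform low one, and the groups overlapped at every step.

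In SoLo 8-cell embryos GATA4 stood at 4.46, 8.53, 0.113 and 15.5 CPM, in the order 020816_06, 020816_07, 020816_08 and 112815_02. The SoLo morulas held 0.0917, 0 and 29.3 CPM. The 6 SoLo expanded blastocysts ran from 0.128 through 11.1 to 45.7 CPM, so they overlapped the 8-cell embryos. The gap seen in SPIA was not empty in SoLo. Embryos 111715_01 and 111715_04, at 20.1 and 26.0 CPM in SPIA, held 5.15 and 16.6 CPM in SoLo. Embryo 111715_02 was high in both, at 21.0 CPM in SPIA and 32.1 CPM in SoLo. Blastocyst 112415_03 had 1 count of GATA4 in SoLo and 0 in SPIA, at 7.96 and 7.20 M counts.

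Cumulus cells, which surround the oocyte, and the related granulosa cells are known to express GATA4 and GATA6. In 8-cell embryos 14 cumulus and granulosa markers had a row. Their summed level ran from 120 to 2253 CPM in SPIA and from 103 to 2844 CPM in SoLo, against 23.7 to 215 CPM in SPIA morulas. VCAN, a cumulus matrix gene, ran from 0.745 to 1544 CPM in the SPIA 8-cell embryos, while FSHR, the granulosa hormone receptor, had 0 counts in 7 of 9. In SoLo, 020816_08 had the lowest sum and the lowest GATA4, while the other 3 embryos had sums of 754, 2844 and 1760 CPM. In SPIA, 020816_07 had a sum of 2253 CPM with GATA4 at 11.8 CPM. There, 020816_10 had 223 CPM with GATA4 at 14.8 CPM, and 112815_02 had 1118 CPM with GATA4 at 0.331 CPM. The part of such cells in the GATA4 levels was not tested.

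GATA6, the earlier endoderm factor, was present at high level from the 8-cell stage. In SPIA 8-cell embryos it ran from 1.19 through 105 to 247 CPM (mean 118 ± 86.4, SD, n = 9). In SPIA morulas it ran from 89.5 through 300.0 to 816 CPM (mean 351 ± 200, SD, n = 11). In SPIA expanded blastocysts it ran from 131 through 277 to 497 CPM (mean 283 ± 117, SD, n = 14). The stages overlapped. The 8-cell embryo 020816_09 had 13 counts of GATA6 in 16.47 M, and 011516_03 had 7.48 CPM. The other 7 stood at or above 72.1 CPM. Embryo 020816_09 was unusual beyond GATA6, in sums over the gene lists used below. Its epiblast genes summed to 1.82 CPM, the lowest of the SPIA 8-cell embryos, whose median was 227 CPM. Its trophectoderm factors summed to 2922 CPM and its primitive endoderm genes to 13270 CPM, the highest, beside medians of 327 and 2305 CPM. What set this library apart was not tested.

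The SoLo 8-cell embryos held 82.2, 86.5, 78.3 and 191 CPM of GATA6. The SoLo morulas held 199, 254 and 317 CPM, all above those 8-cell embryos. SoLo expanded blastocysts ran from 165 through 261 to 395 CPM (mean 269 ± 77.5, SD, n = 6). They overlapped the morulas and, at the low end, the highest 8-cell embryo.

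The embryos could also be read as combinations. Of 9 SPIA 8-cell embryos, 3 reached 5 CPM for GATA6 alone, 2 for GATA3 and GATA6, 2 for GATA4 and GATA6, 1 for GATA2, GATA4 and GATA6, and 1, 020816_09, for none. Of 11 SPIA morulas, 6 reached it for GATA6 alone, 2 for GATA3 and GATA6, 2 for all but GATA4, and 1, 022916_01, for all 4. Of 14 SPIA expanded blastocysts, 9 reached it for all 4, 4 for all but GATA4, and 1, the shallow 111715_05, for GATA2 and GATA6. In SoLo, 5 of 6 expanded blastocysts reached it for all 4. That count rested on GATA4 levels of 5.15 and 5.63 CPM in 2 of them: without TMM scaling GATA4 reached 5 CPM in 3 of 6, and at a threshold of 20 CPM in 2 of 6.

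**Figure D2:**
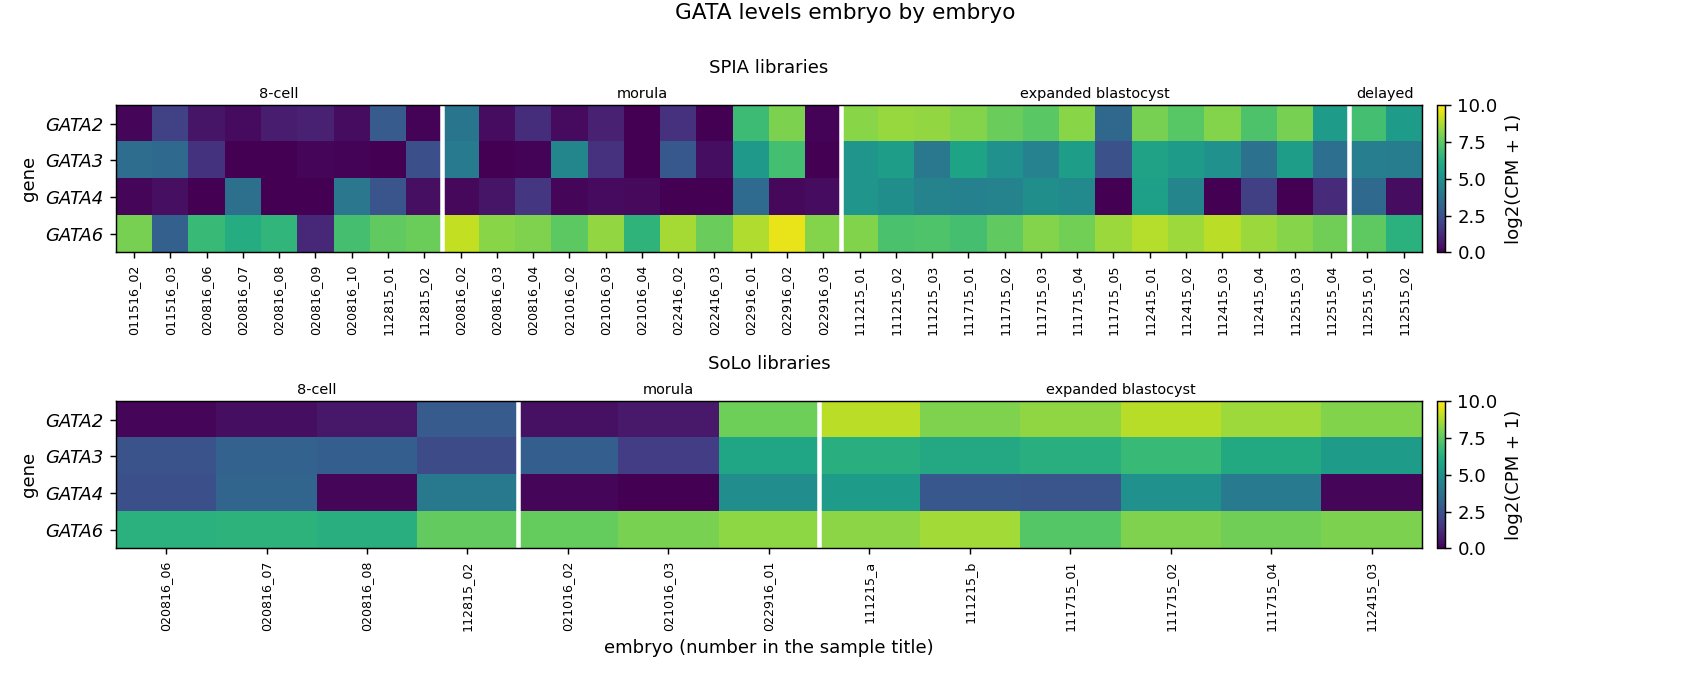
Level of each gene (rows) in each embryo (columns, by title number) as log2(CPM + 1), shown by colour, for SPIA libraries (top) and SoLo libraries (bottom). White lines separate the stages. The GATA6 row is bright in nearly every column, the GATA2 row in the blastocysts and a few morulas, and the GATA4 row is dark in 5 of 14 SPIA expanded blastocysts.

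The stage comparisons asked when each gene changed between the 8-cell stage, morula and blastocyst. Counts were tested with edgeR's quasi-likelihood test and Benjamini-Hochberg adjustment over all genes, and a gene was called at an adjusted p under 0.05. Differences are log2 fold changes with their standard error (SE), from 1 fit per kit.

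Between 8-cell and morula in SPIA, GATA2 and GATA6 rose, so 2 of 4 members were called, both higher, beside 19.4% of all genes tested called in either direction and 9.06% called higher. With limma voom GATA2 did not pass, at 1.39 (adjusted p = 0.513, limma) when blocked on title code and 1.38 when not (adjusted p = 0.530, limma). GATA2 rose by 4.75 ± 1.31 (SE, adjusted p = 0.0119, edgeR) and GATA6 by 1.57 ± 0.47 (adjusted p = 0.0155, edgeR). GATA3 differed by 2.71 ± 1.14 (adjusted p = 0.0860, edgeR) and GATA4 by -1.53 ± 1.15 (adjusted p = 0.370, edgeR), and neither passed. The GATA2 call rested on the morulas with code 022916: without that code the difference was 0.78 (adjusted p = 0.519, edgeR). Within the 1 code that holds both stages, 020816, GATA2 differed by 3.43 (adjusted p = 0.466, edgeR) and GATA6 by 2.31 (adjusted p = 0.375, edgeR). The GATA6 call was lost without code 020816, at 1.07 (adjusted p = 0.217, edgeR), in a fit of only these stages, at 1.58 (adjusted p = 0.0986, edgeR), in libraries of at most 12 M counts, at 0.74 (adjusted p = 0.215, edgeR), and in embryos with no SoLo library, at 1.66 (adjusted p = 0.112, edgeR).

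Without the 3 SPIA embryos with the highest cumulus sums, GATA2 no longer passed in that comparison, at 4.17 (adjusted p = 0.0546, edgeR).

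Between morula and expanded blastocyst in SPIA, GATA4 rose by 3.89 ± 1.19 (SE, adjusted p = 0.0224, edgeR), 1 of 4 members called beside 14.7% of all genes called in either direction and 4.71% called higher. The GATA4 call was lost without code 021016, at 3.49 (adjusted p = 0.0729, edgeR), 111215, at 3.64 (adjusted p = 0.0602, edgeR), or 111715, at 3.84 (adjusted p = 0.0649, edgeR). GATA2 differed by 2.61 ± 1.05 (adjusted p = 0.0896, edgeR), GATA3 by 0.75 ± 0.95 (adjusted p = 0.659, edgeR) and GATA6 by -0.31 ± 0.40 (adjusted p = 0.660, edgeR). Without morula 022916_02 GATA2 passed, at 4.05 (adjusted p = 0.0154, edgeR), and without the code 022916 at 6.58 (adjusted p = 7.24e-05, edgeR). Those fits called 11% and 9.67% of all genes in either direction. Voom with title code as a block called GATA2 at 7.08 (adjusted p = 2.71e-07, limma) and GATA3 at 4.29 (adjusted p = 0.00232, limma), beside 14.3% of all genes.

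Over the whole span from 8-cell to expanded blastocyst in SPIA, GATA2, GATA3 and GATA6 rose, 3 of 4 members beside 36.6% of all genes called in either direction and 12.9% called higher. The median of all genes tested in this comparison was -0.43 with edgeR, 0.33 with DESeq2 and 0.51 with blocked voom. The differences were not centred on these medians, so each is to be read beside the median of its own fit. DESeq2 tested 22248 genes, while edgeR and voom tested 15578. With only the scaling changed, to DESeq2 size factors in edgeR, the median was -0.31. GATA2 rose by 7.36 ± 1.47 (SE, adjusted p = 0.000279, edgeR), GATA3 by 3.46 ± 1.16 (adjusted p = 0.0174, edgeR) and GATA6 by 1.26 ± 0.45 (adjusted p = 0.0229, edgeR). GATA4 differed by 2.36 ± 1.19 (adjusted p = 0.115, edgeR), and passed with DESeq2 at 2.58 (adjusted p = 0.0487) and with voom blocked on title code at 3.85 (adjusted p = 0.0076, limma). DESeq2 called 24% of all genes in either direction and blocked voom 38.7%. The GATA3 and GATA6 calls were lost without the code 020816, at 2.39 (adjusted p = 0.166, edgeR) and 0.78 (adjusted p = 0.269, edgeR). They were lost, too, without the 3 cumulus-rich embryos, at 3.19 (adjusted p = 0.0588, edgeR) and 1.25 (adjusted p = 0.0601, edgeR).

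SoLo gave 1 of 4 members called between 8-cell and morula, beside 16.7% of all genes called in either direction and 9.78% called higher. GATA6 rose by 1.23 ± 0.33 (SE, adjusted p = 0.0163, edgeR). GATA2 differed by 5.42 ± 1.81 (adjusted p = 0.0640, edgeR), GATA3 by 1.91 ± 0.71 (adjusted p = 0.0771, edgeR) and GATA4 by 0.45 ± 1.78 (adjusted p = 0.888, edgeR). These values hung on morula 022916_01. Without it GATA2 turned to -1.86 (adjusted p = 0.380, edgeR), GATA3 to -0.30 (adjusted p = 0.696, edgeR) and GATA4 to -6.69 (adjusted p = 0.0732, edgeR), and GATA6 no longer passed at 1.05 (adjusted p = 0.0590, edgeR).

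Between morula and expanded blastocyst in SoLo, 0 of 4 members passed with edgeR, beside 1.14% of all genes. GATA3, at 1.71 ± 0.70 (SE, adjusted p = 0.242, edgeR), was the 1 member with an unadjusted p under 0.05. DESeq2 called 0 members, beside 3.89% of all genes. Limma voom called GATA2 and GATA3, beside 2.05% of all genes with title code as a block and 3.97% without. Without morula 022916_01, edgeR called GATA2 at 9.61 (adjusted p = 0.00364, edgeR), GATA3 at 3.92 (adjusted p = 0.000291, edgeR) and GATA4 at 7.99 (adjusted p = 0.0487, edgeR), with 2 morulas left. In that fit 9.77% of all genes were called in either direction and 5.1% called higher.

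Over the whole span in SoLo, GATA2, GATA3 and GATA6 rose as in SPIA, 3 of 4 members beside 38.4% of all genes called in either direction and 18.6% called higher. GATA2 rose by 7.74 ± 1.92 (SE, adjusted p = 0.00875, edgeR), GATA3 by 3.62 ± 0.69 (adjusted p = 0.00101, edgeR) and GATA6 by 1.29 ± 0.29 (adjusted p = 0.00229, edgeR). GATA4 differed by 1.29 ± 1.58 (adjusted p = 0.550, edgeR). Without code 020816, which leaves 1 SoLo 8-cell embryo whose spread is assumed to be that of the other groups, none of the 3 calls held. GATA2 was then at 5.83 (adjusted p = 0.279, edgeR), GATA3 at 4.18 (adjusted p = 0.108, edgeR) and GATA6 at 0.45 (adjusted p = 0.417, edgeR).

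**Figure D3:**
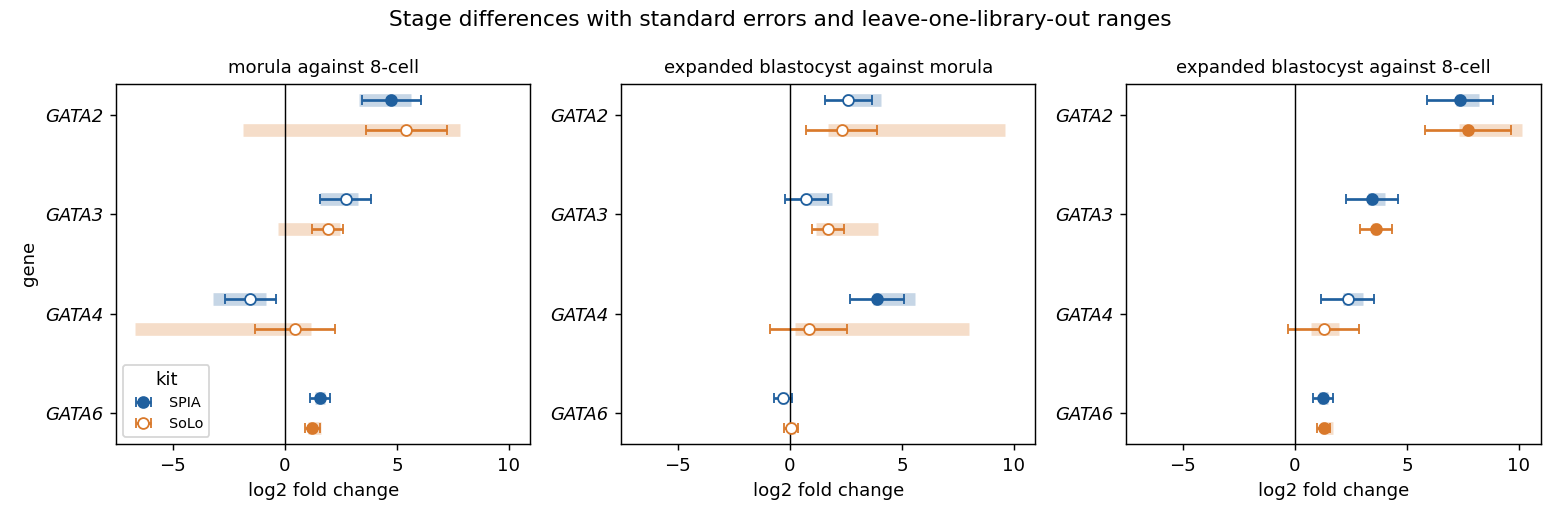
Log2 fold change (horizontal axis) of each gene (vertical axis) in 3 stage comparisons, by kit (colour). Points are edgeR estimates, bars are standard errors, filled points have an adjusted p under 0.05, and pale bands span the values when each library is left out in turn. The widest bands are those of SoLo comparisons with morulas, such as GATA4 from -6.69 to 1.15 between 8-cell and morula.

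The 2 delayed blastocysts held GATA2 at 128 and 43.7 CPM, GATA3 at 18.2 and 17.9 CPM, GATA4 at 9.77 and 0.270 CPM, and GATA6 at 183 and 82.9 CPM. GATA2, GATA3 and GATA4 lay within the range of the expanded blastocysts, while GATA6 in 112515_02 lay below all 14 of them. For GATA2 in 112515_02 that rested on the shallow library 111715_05, at 9.14 CPM. The next lowest expanded blastocyst, 112515_04, held 44.85 CPM of GATA2, above 112515_02. With edgeR 0 of 4 members passed, beside 0.0% of all genes, and 0 of 4 had an unadjusted p under 0.05. DESeq2 and voom called 0 of 4 as well. The estimates were -1.37 ± 2.03, -0.86 ± 1.89, -1.90 ± 2.25 and -1.09 ± 0.83 (SE) for GATA2, GATA3, GATA4 and GATA6, so the errors were as large as most of the estimates. Both delayed embryos carry code 112515, which holds 2 of the expanded blastocysts. Within that code GATA4 averaged 5.02 CPM in delayed and 0.650 CPM in expanded blastocysts, the opposite direction, and GATA6 133 and 256 CPM.

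The comparison of kits asked whether a member's level or its stage change depended on the library method. Of 11 embryos with a title in both kits, GATA2 reached 5 CPM in both for 5, in SoLo only for 1 and in neither for 5. GATA3 did so in both for 6, in SoLo only for 2 and in neither for 3. GATA4 did so in both for 5, in SoLo only for 1 and in neither for 5. GATA6 did so in both for all 11. No member reached it in SPIA only.

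The disagreements at 5 CPM were among 8-cell embryos. GATA3 had 0 counts in SPIA and 82 counts in SoLo in 020816_07, and 0 and 62 counts in 020816_08. GATA4 had 4 counts in SPIA and 116 in SoLo in 112815_02. GATA2 had 1 count in SPIA and 47 in SoLo in 112815_02. Morula 022916_01 was high for all 4 genes in both kits, with GATA2 at 116 and 222 CPM, GATA3 at 41.3 and 57.2 CPM, GATA4 at 10.4 and 29.3 CPM and GATA6 at 448 and 317 CPM, SPIA first.

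**Figure D4:**
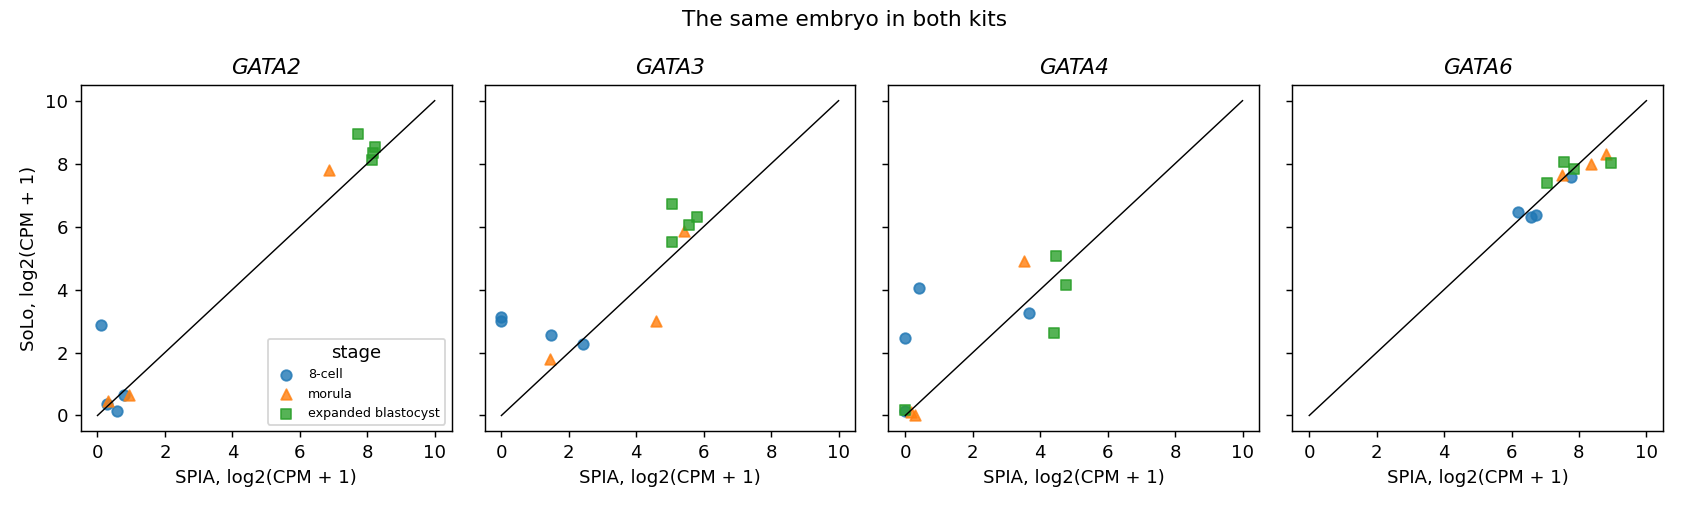
Each gene in the 11 embryos measured with both kits, as log2(CPM + 1) in SPIA (horizontal axis) and SoLo (vertical axis), with marker shape for stage and a line of equality. Blastocysts cluster at the upper right for GATA2 and GATA3, and 8-cell embryos leave the line for GATA3 and GATA4.

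In a fit of 13 libraries per kit with stage in the model, GATA6 was lower in SoLo by -0.99 ± 0.21 (SE, adjusted p = 0.000631, edgeR), 1 of 4 members called beside 24.3% of all genes. With embryo as a replicate block over the 11 pairs GATA6 stood at -1.10 ± 0.16 (adjusted p = 6.62e-06, edgeR), beside 17.9% of all genes called. Stage by stage without the block, GATA6 passed at none of the 3 stages, with an adjusted p from 0.0565 to 0.155 (edgeR). The shares of all genes called were then 14.1%, 2.62% and 9.63% at 8-cell, morula and expanded blastocyst. With the block GATA6 passed at all 3, with differences of -1.10, -1.22 and -0.999 in that order. The shares with the block were 10.2%, 3.23% and 4.41% of all genes. The size depended on the scaling: in CPM scaled within each kit, GATA6 was lower in SoLo in 7 of 11 embryos, with a median log2 difference of -0.18. GATA2, GATA3 and GATA4 differed by -0.01 ± 1.26, 0.11 ± 0.53 and -0.32 ± 0.99 (SE), and none passed.

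For the kit-dependence of stage changes, 0 of 4 members passed in the 3 interaction tests with edgeR, beside 0.0%, 0.0% and 0.0336% of all genes, and 0 of 4 had an unadjusted p under 0.05. DESeq2 called 0 of 4. With embryo as a replicate block 0 of 4 passed after adjustment, and GATA3 and GATA4 each had an unadjusted p under 0.05 in 1 of the 3 tests.

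Co-variation between embryos was examined within a stage and kit with at least 6 libraries, as Pearson's r and Spearman's rho on log2(CPM + 1). Where a gene split a group at a gap of at least 2.5 log2 units, only the subset with 6 or more libraries was used. There were 24 relations with 48 p-values, adjusted together, and 0 passed on this scale. The relation with the smallest p was GATA2 with GATA3 in SPIA expanded blastocysts, with r = 0.810 (permutation p = 0.00133, adjusted 0.0638) and rho = 0.565 (permutation p = 0.0381, adjusted 0.301) over n = 14. Without the 2 farthest from the GATA2 median r was 0.374. One of these 2 was the shallow 111715_05.

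With values centred on title code, that relation reached r = 0.844 (permutation p = 0.00018, adjusted 0.00864), and r without the 2 farthest was 0.659. The centred values were permuted across title codes rather than within them, so this p can be too small. With CPM not scaled by TMM, the relation of GATA2 with GATA3 reached r = 0.873 (permutation p = 4e-05, adjusted 0.00192), and 0.702 without the 2 farthest. Whether it passed therefore depended on the scaling. In SoLo expanded blastocysts, all from embryos with a SPIA library, GATA2 with GATA3 gave r = 0.742 (exact permutation p = 0.0861, adjusted 0.301, n = 6) and rho = 0.657 (exact permutation p = 0.175, adjusted 0.467). GATA2 with GATA4 gave r = 0.881 there (exact permutation p = 0.0208, adjusted 0.301, n = 6), and in the 9 SPIA blastocysts high in GATA4 it gave r = 0.058 (exact permutation p = 0.884, adjusted 0.943, n = 9). These sets are not alike, because the SoLo set kept its blastocyst low in GATA4 (gap of 2.45 log2 units) and the SPIA set left out its 5 (gap of 2.52).

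The endoderm pair GATA4 and GATA6 gave r = 0.632 in those 9 blastocysts (exact permutation p = 0.0679, adjusted 0.301, n = 9), and r = 0.202 without the 2 farthest. Among all 14, the embryos low in GATA4 were not low in GATA6, with 225 to 497 CPM against 131 to 471 CPM in the high set. In the 9 SPIA morulas low in GATA2, GATA2 with GATA6 gave r = 0.719 (exact permutation p = 0.0481, adjusted 0.301, n = 9) and rho = 0.820 (exact permutation p = 0.00962, adjusted 0.231), and r = 0.514 without the 2 farthest. Without TMM scaling its rho was 0.895 (exact permutation p = 0.00225, adjusted 0.036, n = 9). GATA2 there ran from 0 to 13.9 CPM, and 5 of these 9 morulas had 3 counts of GATA2 or fewer. Their ranks, and so this rho, rest largely on very few counts.

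**Figure D5:**
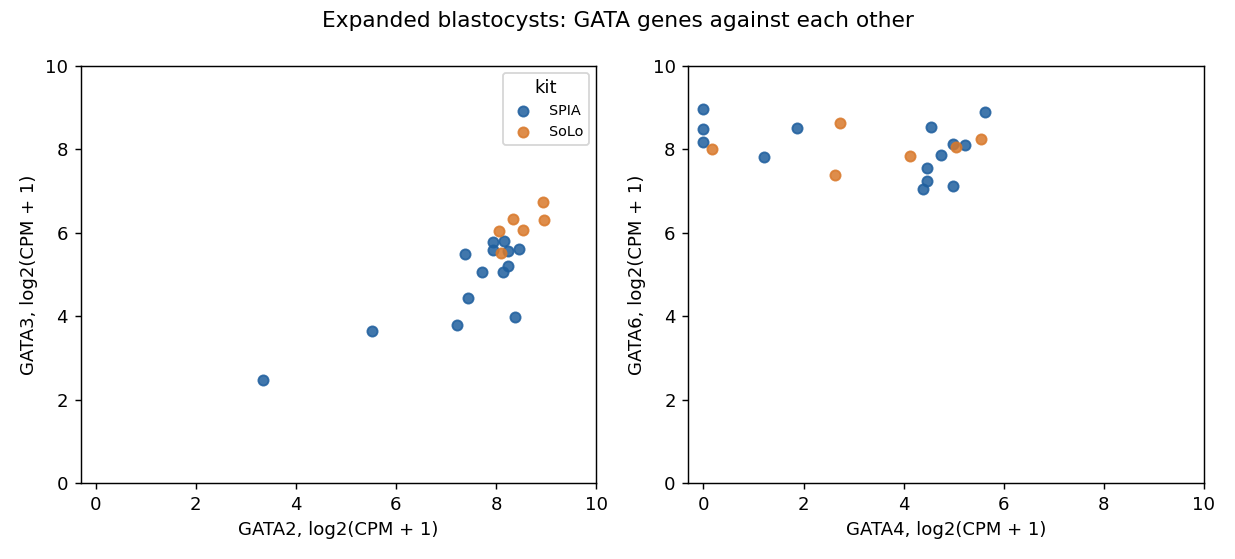
Expanded blastocysts as points, with GATA2 against GATA3 (left) and GATA4 against GATA6 (right), all as log2(CPM + 1), by kit (colour). On the left the 2 lowest SPIA embryos extend the line of points, and on the right GATA4 spans from 0 to 48.4 CPM while GATA6 stays between 131 and 497 CPM in SPIA.

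The genes whose pattern over all 36 SPIA libraries was most like each member, among 12018 genes ranked by Spearman's rho, are given as a description, since stage is shared by all of them. For GATA2 they were MAB21L3 (rho 0.844), ENPEP, a cell-surface peptidase (0.836), and GPX2, a glutathione peroxidase (0.835), with 0.917, 0.868 and 0.807 over the 13 SoLo libraries. For GATA3 they were PLXNB1, a semaphorin receptor (0.834), DLX3, a homeobox factor of trophoblast (0.812), and GATA2 (0.810), with 0.891, 0.875 and 0.808 in SoLo. For GATA4 they were WIPF1, an actin regulator (0.787), PTPN6, a phosphatase (0.720), and FXYD5 (0.719), with 0.659, 0.613 and 0.676 in SoLo. For GATA6 they were NDUFV3, a subunit of respiratory complex I (0.722), HNF4A, an endoderm factor (0.688), and S100A11 (0.647), with 0.714, 0.885 and 0.610 in SoLo. GATA4 and GATA6 had a rho of -0.02 with each other in SPIA and 0.445 in SoLo. Within the 14 SPIA expanded blastocysts alone, the 3 genes most like GATA2 had a rho of 0.74, 0.75 and 0.51 with it, in the order above. Those of GATA3 had 0.78, 0.54 and 0.56, and those of GATA4 had 0.72, 0.73 and 0.84. For GATA6 the values were 0.81 with NDUFV3, 0.21 with HNF4A and 0.42 with S100A11.

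GATA1, the blood factor, had 0 counts in every library, and GATA5 reached at most 1.93 CPM. Of 14 other GATA family and cofactor genes, the 4 members not counted, 2 rose and 6 fell in SPIA between 8-cell and expanded blastocyst, beside 12.9% of all genes higher and 23.7% lower, with a median of -1.01 beside -0.43 for all genes. In SoLo 1 rose and 5 fell of 11, beside 18.6% higher and 19.8% lower, with a median of -0.91 beside -0.05. GATAD2A, a subunit of the NuRD complex, fell by 1.90 in SPIA (adjusted p = 1.04e-05, edgeR) and by 1.39 in SoLo (adjusted p = 6.12e-06, edgeR). GATAD2B, another NuRD subunit, fell by 1.96 (adjusted p = 0.00051, edgeR) and by 1.07 (adjusted p = 0.00376, edgeR). GATAD1 and TBX5 were the 2 that rose in SPIA, by 6.21 and 3.89.

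Of 19 trophectoderm transcription factors tested over the same span, 5 rose and 3 fell in SPIA, beside 12.9% of all genes higher and 23.7% lower, with a median of 0.61. In SoLo 7 rose and 1 fell, beside 18.6% and 19.8%, with a median of 2.55. ELF3, an epithelial factor, rose by 9.25 in SPIA (adjusted p = 2.51e-09, edgeR) and by 6.37 in SoLo (adjusted p = 0.000513, edgeR). HAND1, a trophoblast factor, rose by 7.34 (adjusted p = 0.000325, edgeR) and by 4.18 (adjusted p = 0.0463, edgeR). TFAP2C, which works beside GATA3 in trophoblast, did not pass, at -0.79 in SPIA (adjusted p = 0.103, edgeR) and 0.06 in SoLo (adjusted p = 0.792, edgeR). Of the trophoblast effector genes 8 rose and 2 fell of 14 in SPIA, and 7 rose and 4 fell of 15 in SoLo, against the same shares of all genes. KRT7, a keratin, and PLAC8 rose by 8.28 and 8.84 in SPIA.

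Of 20 primitive endoderm genes tested in SPIA over that span, 13 rose and 3 fell, against those same shares, with a median of 3.30, and in SoLo 12 rose and 2 fell of 21, with a median of 3.13. LRP2, an endocytic receptor, rose by 10.38 in SPIA (adjusted p = 6.33e-07, edgeR) and by 8.35 in SoLo (adjusted p = 0.00367, edgeR). HNF4A rose by 1.83 (adjusted p = 0.0489, edgeR) and by 2.504 (adjusted p = 0.0429, edgeR). PDGFRA, a receptor of this layer, was at 0.34 in SPIA (adjusted p = 0.435, edgeR) and rose by 1.09 in SoLo (adjusted p = 0.00731, edgeR).

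Between morula and blastocyst in SPIA, 12 of the 20 endoderm genes rose and 2 fell, beside 4.71% of all genes higher and 9.95% lower, with a median of 2.93 beside -0.29 for all genes. RSPO3, a secreted WNT enhancer, rose by 7.93 (adjusted p = 0.000636, edgeR), and NID2, a basement membrane protein, by 4.69 (adjusted p = 0.00158, edgeR). In SoLo 0 of 21 passed with edgeR in either direction at that step, beside 0.113% higher and 1.03% lower, with a median of 1.28.

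Of 9 epiblast genes, 6 rose and 1 fell between 8-cell and morula in SPIA, beside 9.06% of all genes higher and 10.3% lower. Of 10 in SoLo 5 rose and 1 fell, beside 9.78% and 6.92%. POU5F1 differed by 1.41 in SPIA (adjusted p = 0.123, edgeR) and rose by 2.03 in SoLo (adjusted p = 0.00617, edgeR). NANOG, which opposes GATA6 in the mouse inner cell mass, did not pass, at 1.31 (adjusted p = 0.312, edgeR) and 1.95 (adjusted p = 0.254, edgeR). Of 22 FGF and BMP signalling genes tested in SPIA over the whole span 2 rose and 6 fell, near the shares of all genes (12.9% higher and 23.7% lower), and in SoLo 9 rose and 2 fell of 22 (18.6% and 19.8%). FGFR2, a receptor, rose in both, by 3.004 (adjusted p = 7.31e-05, edgeR) and by 1.97 (adjusted p = 0.00604, edgeR).

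In the RefSeq annotation (assembly T2T-MMU8v2.0) the members overlap other annotated loci. GATA2 and GATA4 each overlap a pair of long non-coding RNAs. GATA3 overlaps a protein-coding locus, and GATA6 a protein-coding locus and a small nuclear RNA. Strand use in counting was not stated in the sources read here, and reads of a member and of an overlapping locus cannot be told apart. Among the nearest named protein-coding neighbours, RPN1, beside GATA2, stood at 26.8 CPM in SPIA 8-cell embryos and 90.3 CPM in expanded blastocysts (means), and TAF3, beside GATA3, at 260 and 58.8 CPM. CELF2, on the other side of GATA3, and NEIL2 and BLK, beside GATA4, had means of at most 0.323 CPM in those 2 groups. Levels of the GATA6 neighbours are not given here.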

How the data were processed

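The authors deposited a table of raw counts per gene for all libraries, with no normalization; per the submitters' processing notes the tools were HISAT2 and DESeq2, and the aligner's version, genome build, annotation and strand setting were not stated in the sources read here. Of its 52 columns, 49 were matched to samples by title and 3 were not used. SoLo columns of 2 expanded blastocysts share a shortened title and carry no embryo number.

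Counts were fitted per kit with edgeR 4.0.16 (TMM scaling, filterByExpr, robust quasi-likelihood, all stages of the kit in 1 fit, Benjamini-Hochberg adjustment), in R 4.3.3. DESeq2 1.42.0 and limma 3.58.1 (voom, with and without title code as a random block) were alternatives, with others of scaling, filter, groups, depth, embryos and single libraries. Leaving out each title code, and DESeq2 and blocked interaction tests, were chosen after seeing the data, as was the gap of 2.5 log2 units that splits a group. Permutation tests were two-sided, with 100000 resamples at 10 or more libraries and exact below. On simulated counts edgeR recovered the signs of changed genes, but among its SPIA calls the share of unchanged genes was well above the nominal rate, so SPIA adjusted p-values can be too small.

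The members, gene lists and tests were chosen with earlier results of these data known. The text names the 4 members in every library, list genes called with the largest changes (at most 4 per direction), TFAP2C, PDGFRA, HNF4A, POU5F1 and NANOG whether called or not, and the 3 genes most like each member.

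For the kit comparison, same-numbered libraries were taken to come from the same embryo. Over 11 pairs the correlation of their deviations from stage means was above 0.1 for 10, with a median of 0.228 and a lowest of -0.02. In 10 of 11 pairs the SPIA library correlated best with its own SoLo library among those of its stage. The exception was the lowest pair, blastocyst 111715_02. No 2 libraries of a group agreed within sampling noise.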

Additional observations from a re-analysis of the deposited data

Results flagged for a closer look

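Among 12 groups of 4 to 10 libraries checked for a library far from the others, 1 was set apart: GATA6 in the SoLo 8-cell embryo 112815_02, at 191.1 CPM against 78.3 to 86.5 CPM in the other 3. Chance sets apart about 1 in 20 such groups. The same embryo held 215.7 CPM of GATA6 in SPIA, where it was within the range of the 8-cell group, and its cumulus marker sum was 1760 CPM in SoLo. The part of cumulus cells in this value was not tested.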

How the results depend on the processing

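Values are log2 differences with edgeR's adjusted p in brackets unless another tool is named. Title codes are the first digits of embryo numbers, and leaving one out, or the 3 cumulus-rich embryos in SoLo, can leave 1 library in a group, whose spread is then assumed to be that of the other groups. The cause of each change below was not tested, beyond the fewer libraries that most settings hold.

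SPIA, 8-cell to morula: GATA2 was 1.39 (0.513) with voom and title code as a random block, 1.38 (0.530) with voom, 4.17 (0.0546) without the 3 cumulus-rich embryos, 4.34 (0.157) without code 020816, 0.78 (0.519) without 022916, 3.11 (0.182) in libraries of at most 12 M (1e6) counts, 6.54 (0.459) in deeper ones, 3.43 (0.466) within 020816 and 4.04 (0.165) in embryos with no SoLo library. GATA3 passed without 011516, at 4.41 (0.0192). GATA6 was 1.58 (0.0986) with only the compared groups, 1.07 (0.217) without 020816, 0.74 (0.215) at most 12 M, 2.83 (0.498) above, 2.31 (0.375) within 020816 and 1.66 (0.112) with no SoLo library.

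SPIA, morula to expanded blastocyst: GATA2 passed with DESeq2, 2.81 (0.0171), blocked voom, 7.08 (2.71e-07), voom, 7.09 (6.9e-07), without 022916, 6.58 (7.24e-05), and at most 12 M, 3.75 (0.0419). GATA3 passed with blocked voom, 4.29 (0.00232), and voom, 4.21 (0.00459). GATA4 no longer passed without 021016, 3.49 (0.0729), 111215, 3.64 (0.0602), or 111715, 3.84 (0.0649).

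SPIA, 8-cell to expanded blastocyst: GATA3 was 3.19 (0.0588) without the cumulus-rich embryos, 2.39 (0.166) without 020816, 3.03 (0.0618) at most 12 M and 2.85 (0.222) with no SoLo library. GATA4 passed with DESeq2, 2.58 (0.0487), blocked voom, 3.85 (0.0076), and voom, 3.86 (0.0124). GATA6 was 1.25 (0.0601) without the cumulus-rich embryos, 0.78 (0.269) without 020816, 0.95 (0.129) without 112415, 1.01 (0.0946) without 112515, 0.57 (0.270) at most 12 M and 1.41 (0.133) with no SoLo library.

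SoLo, 8-cell to morula: GATA2 passed with DESeq2, 5.30 (0.00579), and without 021016, 7.03 (0.0065), or 112815, 7.80 (0.0388), and turned to -1.86 (0.380) without 022916. GATA3 passed with DESeq2, 1.83 (0.0478), and without 021016, 3.30 (0.000128), and turned to -0.30 (0.696) without 022916. GATA4 turned to -2.24 with blocked voom, -2.29 with voom, -0.71 without 020816 and -6.69 without 022916. GATA6 was 0.39 (0.555) without 020816 and 1.05 (0.0590) without 022916.

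SoLo, morula to expanded blastocyst: GATA2 passed with blocked voom, 6.63 (0.0266), voom, 6.74 (0.0158), and without 022916, 9.61 (0.00364). GATA3 passed with them at 2.74 (0.0418), 2.81 (0.0266) and 3.92 (0.000291). GATA4 turned to -0.75 without 021016 and passed without 022916, at 7.99 (0.0487). GATA6 turned to -0.25 without 021016, -0.17 without 111215, -0.09 without morula 021016_02 and -0.10 without 1 blastocyst of code 111215. SoLo, 8-cell to expanded blastocyst: GATA2 was 9.31 (0.157) without the cumulus-rich embryos, 5.83 (0.279) without 020816 and 7.63 (0.0530) without 111715. GATA3 was 3.37 (0.144) and 4.18 (0.108) without the first 2 of these, and GATA6 0.45 (0.417) without 020816.

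Leaving out each library in turn, values over 8-cell to expanded blastocyst ran in SPIA from 7.20 to 8.24 for GATA2, 3.29 to 4.02 for GATA3, 2.17 to 3.05 for GATA4 and 1.09 to 1.47 for GATA6, and in SoLo from 7.33 to 10.12, 3.47 to 3.78, 0.74 to 1.99 and 1.15 to 1.70, with no call changed in either. From 8-cell to morula they ran in SPIA from 3.31 to 5.63, 1.56 to 3.27, -3.22 to -0.84 and 1.37 to 1.79, with none changed, and in SoLo from -1.86 to 7.80, -0.30 to 2.44, -6.69 to 1.15 and 1.05 to 1.64. In those SoLo fits the sign or call changed in 4 of 7 for GATA2, 3 for GATA3, 1 for GATA4 and 1 for GATA6. From morula to expanded blastocyst the values ran in SPIA from 2.48 to 4.05, 0.61 to 1.89, 3.70 to 5.57 and -0.42 to -0.11, with GATA2 called without 022916_02, and in SoLo from 1.73 to 9.61, 1.17 to 3.92, 0.25 to 7.99 and -0.10 to 0.25. There the SoLo sign or call changed in 1 of 9 fits for each of GATA2, GATA3 and GATA4 and in 2 for GATA6.

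For the kits, GATA2 turned to 0.12 with DESeq2, and the kit difference of GATA4's 8-cell to morula change, 0.22, turned to -0.029 with DESeq2 and -4.22 with the block, none of them passing. With embryo as a replicate block the paired difference of GATA6 over stages was -1.10, and the block changed no other call over stages.

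Numbers of genes called moved too. SPIA 8-cell to morula, 3024, went to 4634 with no filter, 1979 and 1796 with blocked and plain voom, 446 with only the compared groups, 1014 without 020816, 1876 at most 12 M, 0 above, 4 within 020816 and 962 with no SoLo library. Morula to expanded blastocyst, 2283, went to 3792 with no filter, 1297 with the compared groups, 1473, 1385, 1064, 1312 and 1468 without 022916, 111215, 111715, 112415 and 112515, 1310 at most 12 M and 657 with no SoLo library. The whole span, 5708, went to 3704 with the compared groups, 3270 and 3787 without 020816 and 112515, and 2804 with no SoLo library. Delayed against expanded blastocysts, 0 with edgeR (196 genes at an unadjusted p under 0.05), went to 25 with DESeq2 and 1 with voom. SoLo 8-cell to morula, 2371, went to 4012 with DESeq2, 1266 with the compared groups and 1347 without 021016. Morula to expanded blastocyst, 162, went to 841 with DESeq2, 291 and 564 with blocked and plain voom, and 1, 1477, 7, 0 and 271 without 021016, 022916, 111215, 111715 and 112415. The whole span, 5457, went to 3488 and 2881 without 020816 and 111715. Genes called higher were 733 of 2283 (edgeR), 866 of 1907 (DESeq2) and 1739 of 2235 (blocked voom) from morula to blastocyst in SPIA, and 2017 of 5708, 2446 of 5335 and 3982 of 6022 over the whole span. In SoLo they were 1388 of 2371 and 1734 of 4012 (DESeq2) from 8-cell to morula, and 16 of 162, 373 of 841 and 211 of 291 from morula to blastocyst.

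Of 28 counts of embryos at or above 5 CPM, 5 moved at 1 CPM, 12 at 20 CPM and 1 without TMM. A shift no larger in proportion than that from 2 to 3 embryos was not counted as moved. Without TMM such smaller shifts were GATA3 from 2 to 3 in SPIA 8-cell embryos, from 5 to 4 in SPIA morulas and from 2 to 3 in SoLo 8-cell embryos. GATA4 went from 2 to 3 in SoLo 8-cell embryos. Smaller shifts occurred at 1 and 20 CPM too. GATA3 was reached in 4 of 9 SPIA 8-cell embryos at 1 CPM and in 10 of 14 SPIA expanded blastocysts at 20 CPM, and GATA4 in SoLo expanded blastocysts went from 5 of 6 to 2 at 20 CPM and 3 without TMM. Depth limited 111715_05, where 3 counts correspond to 6.86 CPM.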
